A study of Mus musculus with 18 samples.

Results

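Macrophages labelled BAFF knockout (BAFF KO) were compared with and without lipopolysaccharide (LPS) across the genes of the deposited expression table. The labels put 6 of the 18 columns of that table in this comparison, 4 with LPS and 2 without. Columns carrying the same library number were averaged, which left 3 of the 9 libraries: library 16 without stimulation and libraries 17 and 18 with LPS. Of the 11164 genes listed, 9934 reached a mean of 1 RPKM (reads scaled to the gene's length and to the library's total) in at least 1 of the series' 6 groups and were tested.

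The cells were macrophages grown from mouse bone marrow, and every group was of strain C57BL/6J and labelled with day 16 of gestation. The other genotypes were wild type (WT) and APRIL KO, and each genotype had 1 unstimulated and 2 LPS libraries. LPS was given at 10 ng/ml for 4 h, and no agent is named for the unstimulated cells. The labels do not give the design of the BAFF allele, the number of mice, or how the marrow cells were grown. Nothing in them tells whether libraries 17 and 18 came from different mice or cultures, so a p-value here reflects the scatter between libraries, which may be technical, and the scatter of the lone library 16 was taken to equal that of the LPS groups.

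LPS is a component of the outer membrane of Gram-negative bacteria and is sensed by Toll-like receptor 4 together with CD14 and MD-2. The adaptor MyD88 leads to NF-kB and to inflammatory cytokines, and the adaptor TRIF leads to interferon beta, which acts back on the cells through JAK kinases and STAT factors. BAFF is a cytokine of the tumour necrosis factor family that myeloid cells secrete, best known for the survival of B cells.

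The columns of the 3 BAFF KO libraries held 1701428 to 4078562 reads in the listed genes. BAFF's own gene, Tnfsf13b, was not analysed here, so the genotype could not be checked from its target. The macrophage marker Adgre1 (F4/80) was at 423 RPKM unstimulated and 484 and 432 with LPS , and the lysosomal marker Cd68 at 1226 RPKM unstimulated and 803 and 655 with LPS. Library 16 stood apart from the unstimulated libraries of WT and APRIL KO by gene length. Its genes of up to 1 kb were higher than the mean of those libraries by a median of 0.23 on the log2(RPKM + 1) scale, and its genes over 12 kb were lower, at a median of -0.42. Between the LPS libraries of BAFF KO and of the other genotypes the same medians were -0.08 and 0.09. Short genes therefore fell more and long genes less in BAFF KO: the median change with LPS went from -0.48 for genes up to 1 kb to -0.03 for genes over 12 kb, whereas in WT it went from -0.17 to -0.57. The cause of this length trend was not tested, and results below are given with it removed wherever that ends a call or moves a count by more than 1.5-fold.

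**Figure D1:**
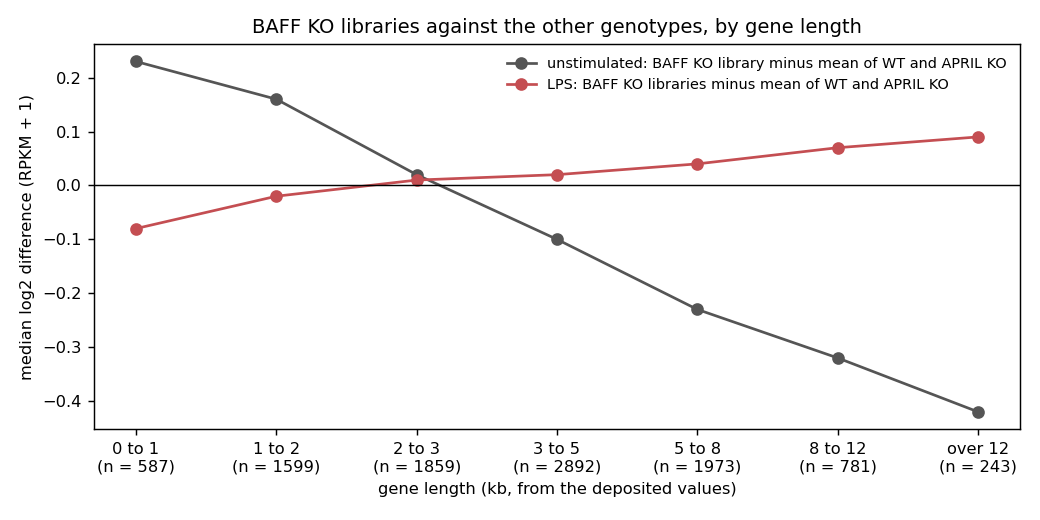
Median log2(RPKM + 1) difference between BAFF KO libraries and the mean of WT and APRIL KO libraries, in 7 classes of gene length (x axis, kb, with the number of tested genes). The unstimulated library (grey) runs from 0.23 for the shortest to -0.42 for the longest genes, and the LPS libraries (red) stay between -0.08 and 0.09.

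Promoter sequences are shown for 6 genes on which the results turn. Cxcl10, Il6 and Nfkbia are shown as strongly raised NF-kB targets, and Gbp2b and Rsad2 as interferon-induced genes. Mt2 is shown as a gene that rose in the other genotypes and was not called in BAFF KO as deposited. Each sequence is the 250 bases before the RefSeq transcription start (build GRCm38.p6), written 5′ to 3′ on the gene's strand. Capitals mark matches, on either strand, to the kappaB consensus of NF-kB, to the core bound by interferon regulatory factors (GAAA, a gap of any 2 bases, and GAAA again), or, in Mt2, to the metal response element core TGCACNC.
Cxcl10, chr5:92348890-92349139, minus strand: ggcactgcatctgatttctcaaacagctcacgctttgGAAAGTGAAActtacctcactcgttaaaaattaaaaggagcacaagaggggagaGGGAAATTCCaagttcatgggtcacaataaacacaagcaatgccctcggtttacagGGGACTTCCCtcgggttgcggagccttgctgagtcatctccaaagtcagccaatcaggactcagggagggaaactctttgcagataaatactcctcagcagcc
Il6, chr5:30012864-30013113, plus strand: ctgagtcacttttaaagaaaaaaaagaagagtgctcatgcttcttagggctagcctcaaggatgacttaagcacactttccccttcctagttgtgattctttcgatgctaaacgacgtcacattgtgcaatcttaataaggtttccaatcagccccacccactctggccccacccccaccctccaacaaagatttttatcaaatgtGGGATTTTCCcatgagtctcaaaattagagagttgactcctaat
Nfkbia, chr12:55492648-55492897, minus strand: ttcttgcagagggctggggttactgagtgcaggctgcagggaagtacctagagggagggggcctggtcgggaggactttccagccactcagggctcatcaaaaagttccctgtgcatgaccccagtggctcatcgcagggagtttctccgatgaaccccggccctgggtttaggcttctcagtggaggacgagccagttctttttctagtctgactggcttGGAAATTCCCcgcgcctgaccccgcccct
Gbp2b, chr3:142594597-142594846, plus strand: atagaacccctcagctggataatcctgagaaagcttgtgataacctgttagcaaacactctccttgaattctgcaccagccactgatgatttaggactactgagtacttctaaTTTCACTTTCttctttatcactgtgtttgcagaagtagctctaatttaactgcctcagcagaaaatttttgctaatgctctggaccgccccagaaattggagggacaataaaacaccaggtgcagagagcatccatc
Rsad2, chr12:26456453-26456702, minus strand: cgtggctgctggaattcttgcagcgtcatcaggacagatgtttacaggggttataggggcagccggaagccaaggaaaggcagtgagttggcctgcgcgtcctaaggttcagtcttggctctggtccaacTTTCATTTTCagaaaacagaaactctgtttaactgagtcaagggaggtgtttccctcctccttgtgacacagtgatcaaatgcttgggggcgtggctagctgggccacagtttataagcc
Mt2, chr8:94172368-94172617, plus strand: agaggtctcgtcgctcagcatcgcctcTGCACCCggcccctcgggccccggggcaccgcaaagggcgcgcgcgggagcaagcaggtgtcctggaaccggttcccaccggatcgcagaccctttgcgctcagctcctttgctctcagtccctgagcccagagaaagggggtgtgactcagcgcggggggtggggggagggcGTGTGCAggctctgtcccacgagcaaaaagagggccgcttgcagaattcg
Cxcl10 held 2 kappaB matches, from -159 to -150 and from -103 to -94 relative to the start, and 1 interferon core from -213 to -204. Il6 had a kappaB match from -44 to -35 and Nfkbia from -29 to -20. The interferon core lay from -137 to -128 in Gbp2b and from -120 to -111 in Rsad2, and Mt2 had metal response cores from -223 to -217 and from -50 to -44. No matches overlapped.

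Over RefSeq windows of 300 bases, which add 50 bases after the start, the kappaB consensus stood in 5.14% of 27025 genes and the interferon core in 3.99%. Over the 7717 tested genes with a window these shares were 6.22% and 4.24%. Among genes called higher with LPS in BAFF KO, 110 of 1230 with a window (8.94%) held the kappaB consensus and 114 (9.27%) the interferon core. Among genes called lower these were 181 (5.18%) and 100 (2.86%) of 3491. The metal response core marked in Mt2 was in 14.2% of tested genes with a window, 14.7% of those called higher and 15.1% of those called lower. It was in 4 of 16 metal handling genes with a window (25%). By list, the kappaB consensus was in 6 of 8 NF-kB genes with a window (75%), 5 of 15 chemokine genes (33.3%) and 5 of 19 cytokine genes (26.3%). The interferon core was in 9 of 10 genes of the GBP and IRG families of interferon-induced GTPases (90%) and in 14 of 28 interferon-stimulated antiviral genes (50%). A match describes letters in a window and does not show that a factor binds there.

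With LPS, 1590 of the 9934 tested genes were called higher (16%) and 4353 lower (43.8%) in BAFF KO macrophages, 5943 in all (59.8%; limma, Benjamini-Hochberg adjusted p below 0.05). The rises were fewer but larger. On the log2(RPKM + 1) scale 369 rises and 97 falls were at least 4-fold, and 63 rises and 0 falls at least 16-fold. All 4 LPS columns lay beyond both unstimulated columns in 1574 of the genes called higher and 4284 of those called lower, where 20.3% and 55.2% of all tested genes lay wholly above or below.

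Reads moved to the raised genes. The genes called higher took 13% of reads in each unstimulated column and 40.4% to 40.8% in the LPS columns, and those raised at least 4-fold went from 1.68% and 1.69% to between 17.8% and 18%. The genes called lower went from 62.3% and 62.6% to between 35.3% and 36.3%. RPKM is relative to the total, so such a gain lowers every other gene, and the median change over all tested genes was -0.4. After median ratio scaling, which centres most genes near 0, the median was -0.04, and 2292 genes were higher (23.1%) and 1768 lower (17.8%), 4060 in all (40.9%). Under median ratio scaling each of the 1590 rises was still called, 1768 of the 4353 falls were still called lower, and 0 falls were called higher. This scaling shifts the changes with LPS upward. That rises kept their call under it is therefore largely given in advance, here and in the lists below. After quantile normalization the median was -0.19, and 1965 genes were higher (19.8%) and 3004 lower (30.2%), 4969 in all (50%). A fall of about 0.4 is therefore that of the middle gene, and for each gene list below the counts under median ratio scaling are given too.

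The 15 genes raised furthest were led by inflammatory and interferon-induced genes. Nos2 (ENSMUSG00000020826, chromosome 11, 78920787 to 78960254, mm10), the inducible nitric oxide synthase gene, was at 0.138 RPKM unstimulated and 312 and 329 with LPS. It had 2 reads without stimulation and 15049 with LPS, a ratio of 3850 after scaling to the library totals (95% interval for counting error 1060 to 31800). Its log2 change was 8.14 (SE 0.15; limma adjusted p = 5e-08).

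The cytokine genes among them were Il27, Il6 and Il12b. Il27 encodes the p28 subunit of interleukin-27 and was at 0.817 RPKM unstimulated and 405 and 328 with LPS. Il6 was at 1.2 RPKM unstimulated and 357 and 270.1 with LPS, and Il12b, the p40 subunit shared by interleukins 12 and 23, at 0.742 RPKM unstimulated and 154 and 144 with LPS. Their log2 changes were 7.65, 7.14 and 6.43. In each of the 3 genes both LPS libraries lay far above the unstimulated library.

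Chemokine genes, which draw leukocytes to inflamed tissue, reached higher levels. Cxcl10 was at 30.5 RPKM unstimulated and 3260.2 and 3055 with LPS, Ccl5 at 24.3 RPKM unstimulated and 2013 and 1736 with LPS, and Ccl4, whose reads may be shared with its relative Ccl3, at 28.2 RPKM unstimulated and 2261 and 1963 with LPS. Cxcl9, a chemokine gene known for its response to interferon gamma, had 2 reads unstimulated and 4295 with LPS, a ratio of 1100 (304 to 9070), and was at 0.272 RPKM unstimulated and 131 and 133 with LPS. Each of these 4 genes is best known as attracting T cells or monocytes. Their log2 changes were 6.65, 6.21, 6.18 and 6.7.

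Other large rises were in Gbp2b, a guanylate-binding protein gene (4.46 RPKM unstimulated and 765 and 825 with LPS), the costimulatory receptor gene Cd40 (5.02 RPKM unstimulated and 479 and 466 with LPS) and Acod1, which makes itaconate from a citric acid cycle intermediate (8.04 RPKM unstimulated and 699 and 626 with LPS). Ptgs2, the inducible cyclooxygenase gene, was at 0.349 RPKM unstimulated and 93.6 and 100.3 with LPS, and the interferon-induced nucleotide kinase gene Cmpk2 at 15.7 RPKM unstimulated and 1055 and 1025 with LPS. Trim30c and Calhm6 completed the group, at log2 changes of 6.19 and 6.13. Over the 15 genes the adjusted p ran from 2.5e-08 to 1.9e-07 (limma). All were chosen with LPS columns above those of library 16, so that gap is no separate result.

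**Figure D2:**
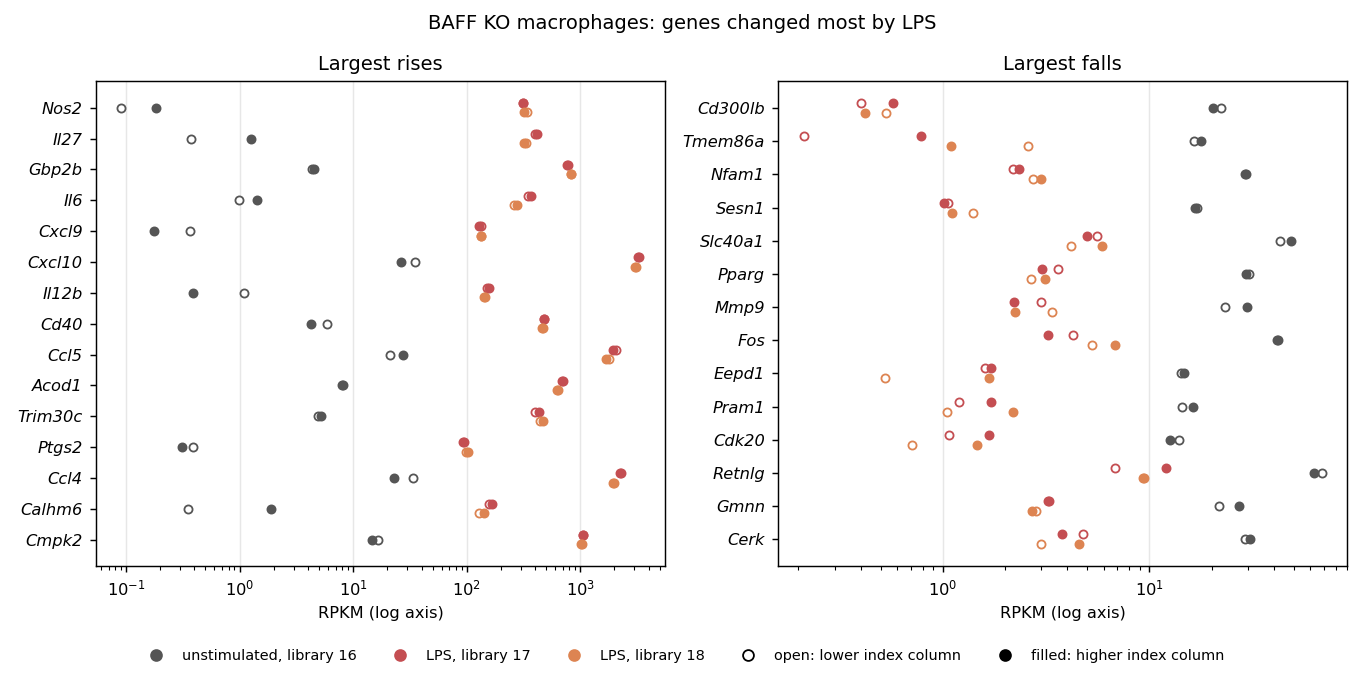
RPKM on a log axis of the 15 largest rises and of 14 of the largest falls with LPS in BAFF KO macrophages, with each column of library 16 (unstimulated, grey), 17 (red) and 18 (orange) as a point. The gap between grey and coloured points follows from the choice of genes whose columns do not overlap, and the LPS columns of Tmem86a are the most spread among the falls.

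Libraries 17 and 18 differed little from each other. Their median absolute log2 difference was 0.15, and 64 tested genes were over 2-fold apart. At 0 reads in library 16 stood 95 tested genes, of which 28 were called higher. Serpina3f, a serine protease inhibitor gene, had 290 reads with LPS and was at least 49.4-fold higher than the 3 reads that a count of 0 allows over the group. The aggrecanase gene Adamts4 (225 reads) was at least 38.4-fold and Tnfsf15, a cytokine gene of the TNF family (200 reads), at least 34.1-fold higher. The Notch ligand gene Dll1 and the MYC relative Mycl were at least 23-fold and 21-fold higher. These 5 were chosen after their values were seen, as those with the most LPS reads.

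The lists that follow were ordered by role. Within a list the 3 largest called rises and falls are named, and any other member given was chosen after its values were seen. Each count as deposited stands beside the 16% of all tested genes called higher and the 43.8% called lower. Each count after median ratio scaling stands beside 23.1% higher and 17.8% lower. A share near those is no result about the list. The receptors and adaptors that sense LPS changed in a mixed way, with 14 of 29 higher and 3 lower (median 0.4; 16 and 2 after median ratio scaling, 14 and 5 with the length trend removed). Tlr4 itself was low at 1.11 RPKM unstimulated and 0.771 and 0.884 with LPS and was not called (log2 change -0.21, adjusted p = 0.38). Its co-receptor gene Cd14 rose from 42.1 to 101 and 108 RPKM. Tlr2, the receptor for bacterial lipoproteins, rose from 6.25 to 28.1 and 31.1 RPKM, Tlr3, the receptor for double-stranded RNA, from 0.472 to 8.8 and 9.44 RPKM, and Myd88 from 24.4 to 98.9 and 100.3 RPKM. Lower were Tlr13, which senses bacterial ribosomal RNA, from 3.12 to 0.452 and 0.871 RPKM, and the receptor-associated kinase genes Irak4 (-1.22) and Irak1 (-0.74). Irak1 was at -0.33 and no longer called after median ratio scaling (adjusted p = 0.2), and its call also ended without library 17.

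All 11 NF-kB subunit and inhibitor genes tested rose (median 2.27), also after median ratio scaling. The largest rises were in the inhibitors of the IkB family, which NF-kB itself induces. Nfkbiz rose from 5.74 to 88.1 and 93.1 RPKM, Nfkbie from 3.35 to 46.3 and 50.9 RPKM and Nfkbia from 135 to 1061 and 894 RPKM. Of the DNA-binding subunits, Nfkb1 changed by 2.72, Rel by 2.71, Nfkb2 by 2.27, Rela by 1.41 and Relb by 1.01 on the log2 scale.

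Of 20 feedback inhibitors of inflammatory signalling, 16 rose and 1 fell (median 1.35; 16 and 0 after median ratio scaling). Tnfaip3, which encodes the ubiquitin-editing enzyme A20, rose from 7.38 to 116 and 147 RPKM. The ubiquitin ligase gene Peli1 rose from 8.88 to 139 and 154 RPKM, and Usp18, which removes ISG15 and dampens interferon receptor signalling, from 50.2 to 781 and 683 RPKM. The cytokine signalling suppressor Socs3 changed by 3.44. Sigirr, an inhibitory receptor gene, had 10 reads unstimulated and 4 with LPS (-0.5, limma adjusted p = 0.031). It lost its call after median ratio scaling, with the length trend removed (limma adjusted p = 0.061) and without library 18.

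Immediate early transcription factor genes, which respond within minutes of a stimulus, had 4 rises and 1 fall of 13 at this time (median -0.03; the same counts after median ratio scaling). Fos fell from 41.7 to 3.74 and 6.03 RPKM. Klf6 rose from 16.3 to 56.2 and 68.8 RPKM, the nuclear receptor gene Nr4a3 from 0.395 to 3.96 and 3.94 RPKM and the small MAF protein gene Mafk from 2.79 to 8.4 and 7.13 RPKM. These 4 genes were named for their called changes, so LPS libraries beyond library 16 go with that choice.

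Cytokine genes rose in 18 of 26 and fell in 3 (median 2.96; 19 and 3 after median ratio scaling). Tnf was at 17.5 RPKM unstimulated and 714 and 702 with LPS (log2 change 5.26). The interleukin-1 genes rose too, Il1b from 7.79 to 373 and 369 RPKM and Il1a from 2.07 to 176 and 203 RPKM. Il10, the main anti-inflammatory cytokine gene, rose from 1.29 to 69.3 and 64.9 RPKM, and Il15, which supports natural killer and memory T cells, changed by 4.86. The falls were in growth factor genes. Vegfa, the vascular growth factor gene, fell from 23.5 to 4.62 and 4.33 RPKM, the stress-induced Gdf15 from 12.2 to 3.96 and 4.98 RPKM and Tgfb1, which restrains inflammation, from 158 to 85.1 and 79.1 RPKM. Ifnb1, the gene of interferon beta, was not analysed here. Csf2, Csf3, Il19, Il33 and Osm were tested and not called.

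Chemokine genes rose in 16 of 22 and fell in 3 (median 3.69; 16 and 1 after median ratio scaling). Besides those named above, the neutrophil-attracting Cxcl1 and Cxcl2 changed by 5.12 and 4.56, and the monocyte-attracting Ccl2 by 4.73. The falls were Cxcl14 (from 17 to 5.8 and 4.08 RPKM), Ccl6 (from 64.3 to 39.5 and 39.1 RPKM) and Pf4, platelet factor 4 (from 545 to 420.5 and 347 RPKM). After median ratio scaling Ccl6 was at -0.25 (adjusted p = 0.084) and Pf4 at -0.05 (adjusted p = 0.79), so only the fall of Cxcl14 was called under both scalings.

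Interferon-stimulated antiviral genes rose in 36 of 37 (median 3.19), with 0 falls, and the counts were the same after median ratio scaling. Rsad2, which encodes the antiviral enzyme viperin, rose from 28.1 to 1634 and 1664 RPKM, and Oasl1, a 2′-5′-oligoadenylate synthetase-like gene, from 10.1 to 439.6 and 403 RPKM. The RNA helicase gene Ifih1 (MDA5), a sensor of viral RNA, changed by 4.72 and the GTPase gene Mx1 by 4.05. The gene not called was Isg15, with 0 reads in library 16.

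All 15 guanylate-binding proteins and immunity-related GTPases tested rose (median 4.03), under either scaling. These proteins attack the vacuoles in which microbes live. Gbp3 rose from 11.2 to 593 and 594 RPKM and Gbp2 from 27.3 to 1334 and 1315 RPKM, and Igtp (Irgm3) changed by 4.03. Members of both families resemble each other closely and may share reads.

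Interferon regulatory factors, JAK kinases and STAT factors had 15 rises and 3 falls of 23 (median 1.03; 17 and 2 after median ratio scaling). Irf1 rose from 20.6 to 410.4 and 437 RPKM, the kinase gene Jak2 from 17.7 to 203 and 219 RPKM and Irf7, which amplifies interferon production, from 46.9 to 403 and 383 RPKM. Stat2 and Stat3 changed by 2.27 and 2.22. The 3 falls were in Ifngr1, a chain of the interferon gamma receptor (from 37.3 to 15 and 18.5 RPKM), in Stat6, the factor downstream of interleukin-4 (from 71.7 to 36.5 and 42.1 RPKM), and in Irf3, which is activated by phosphorylation (from 15.6 to 8.54 and 8.25 RPKM). Irf3 was not called after median ratio scaling (adjusted p = 0.11).

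**Figure D3:**
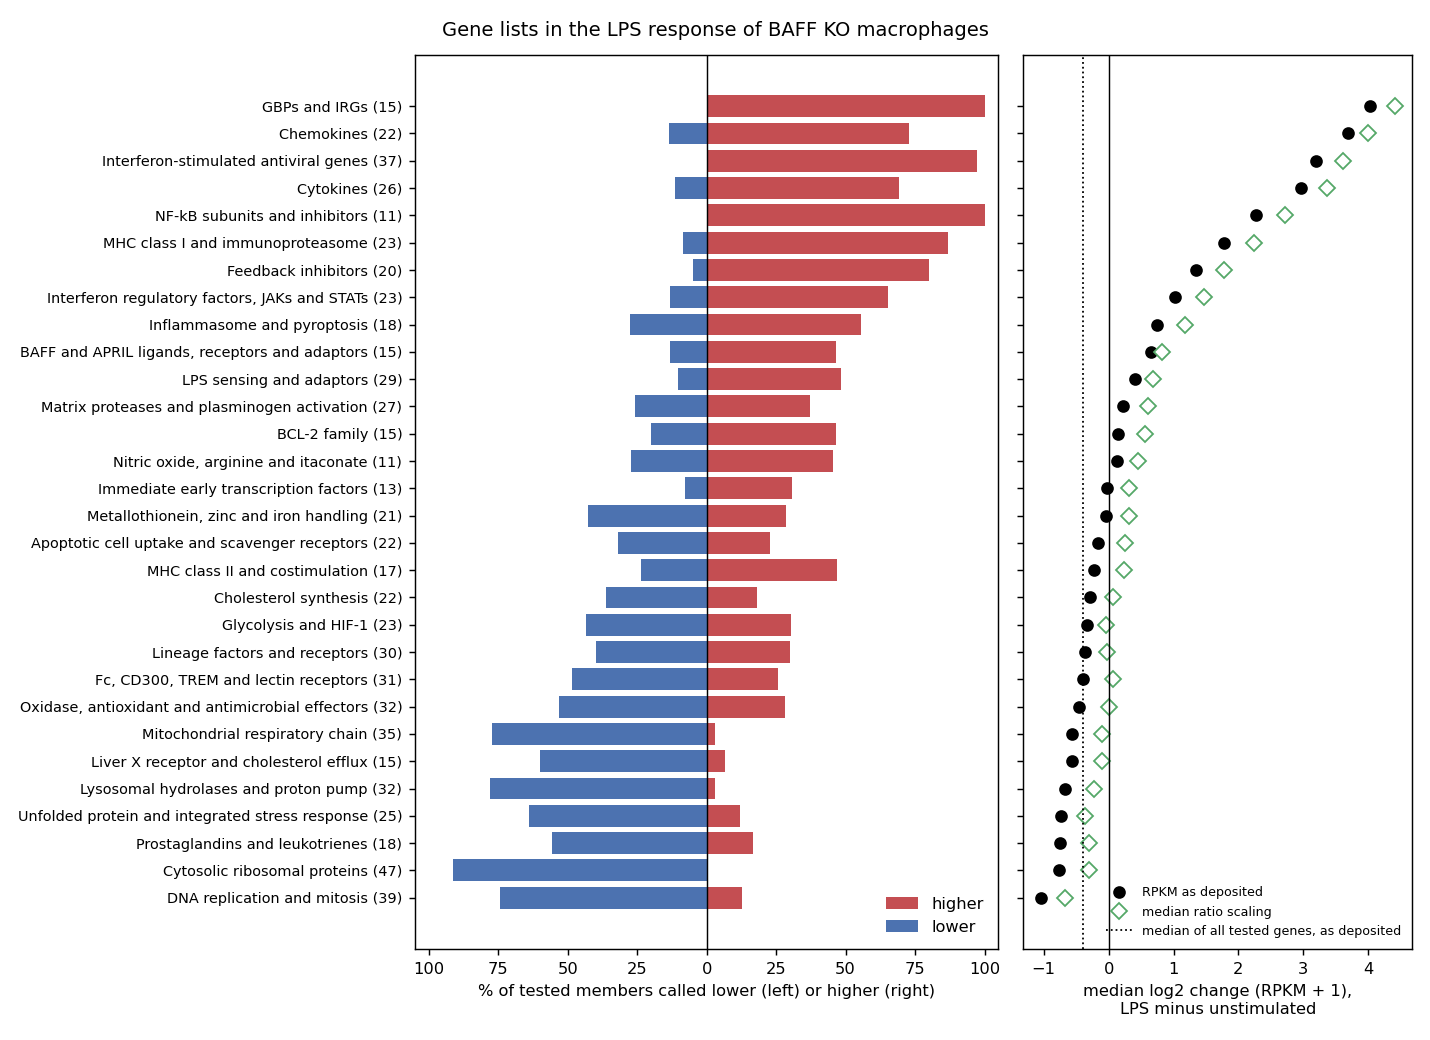
Left, the share of tested members called higher (red, to the right) or lower (blue, to the left) with LPS in BAFF KO, for 30 gene lists with the number tested. Right, the median log2(RPKM + 1) change of each list as deposited (black) and after median ratio scaling (green), with the median of all tested genes dotted at -0.4: lists from guanylate-binding proteins at 4.03 down to cell cycle genes at -1.04.

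Genes of MHC class I presentation rose in 20 of 23 and fell in 2 (median 1.78; 21 and 0 after median ratio scaling). Nlrc5, the transactivator of class I genes, rose from 10.0 to 118 and 135 RPKM, the peptide transporter gene Tap1 from 39.3 to 323 and 314 RPKM and Tapbpl, for a peptide editor related to tapasin, from 7.78 to 43.6 and 40.6 RPKM. The immunoproteasome subunits Psmb9 and Psmb10 changed by 2.17 and 2.13. The chaperone genes Pdia3 (-0.59) and Calr (-0.4) fell, but after median ratio scaling they were at -0.14 and 0.06 and not called, and without library 18 neither was called.

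MHC class II and costimulatory genes split. Of 17, 8 rose and 4 fell (median -0.22; 8 and 0 after median ratio scaling). All the rises but Ciita, the class II transactivator gene (1.32), were in costimulatory or related surface molecules. Cd274, which encodes PD-L1, rose from 11 to 267 and 319 RPKM, and the ICOS ligand gene Icosl from 3.05 to 27.4 and 23.6 RPKM. The falls were in the peptide-loading genes H2-DMa (from 17.5 to 11.5 and 8.74 RPKM) and H2-DMb1 (from 27.7 to 21.6 and 16.2 RPKM), in H2-Aa (from 55.5 to 37.7 and 33.8 RPKM), and in the protease gene Ctss, which trims the invariant chain (from 3384 to 2501 and 2379.7 RPKM). None of these 4 falls was called without library 18 or after median ratio scaling, and H2-DMb1 was not called with the length trend removed either (adjusted p = 0.067).

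The nitric oxide, arginine and itaconate list had 5 rises and 3 falls of 11 (median 0.13; 5 and 1 after median ratio scaling). The arginine transporter gene Slc7a2 rose with Nos2, from 1.73 to 58.8 and 69.6 RPKM, as did Gch1 (2.05), which makes the synthase's cofactor. Falls were in the cofactor enzyme gene Pts (-1.02), in Asl (-0.97), which regenerates arginine, and in Odc1 (-0.33), which uses ornithine. After median ratio scaling Pts was at -0.59 (adjusted p = 0.07) and Odc1 at 0.12 (adjusted p = 0.41), and neither was called. Odc1 was not called without library 18 either.

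Prostaglandin and leukotriene genes had 3 rises and 10 falls of 18, near the 16% and 43.8% of all tested genes (median -0.75; 4 and 5 after median ratio scaling). The rises form the inducible route to prostaglandin E2: Ptgs2, the terminal synthase gene Ptges (from 0.596 to 9.0 and 9.62 RPKM) and the phospholipase gene Pla2g4a (from 3.22 to 10.6 and 10.3 RPKM). The constitutive cyclooxygenase gene Ptgs1 fell from 7.15 to 1.76 and 3.05 RPKM, and Hpgd, which breaks prostaglandins down, from 6.13 to 1.85 and 1.6 RPKM. On the leukotriene side Alox5ap fell from 243 to 107 and 90.5 RPKM.

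Matrix protease and plasminogen activation genes had 10 rises and 7 falls of 27 (median 0.22; 12 and 3 after median ratio scaling). The collagenase gene Mmp13 rose from 9.33 to 124 and 128 RPKM and the membrane-bound Mmp14 from 27.7 to 141 and 138 RPKM. The gelatinase gene Mmp9 fell from 26.5 to 2.61 and 2.79 RPKM, the neutrophil collagenase gene Mmp8 from 32.1 to 6.33 and 7.99 RPKM and Adam8 from 564 to 216 and 224 RPKM.

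Of 18 inflammasome and cell death genes 10 rose and 5 fell (median 0.74; 10 and 3 after median ratio scaling). Mlkl, the effector of necroptosis, rose from 14.5 to 158 and 157 RPKM, Nlrp3 from 12.3 to 85.9 and 76.6 RPKM, and Casp4, which encodes caspase-11, the intracellular sensor of LPS, from 20.5 to 126 and 121 RPKM. Lower were Nlrp1b (-1.73), the thioredoxin inhibitor gene Txnip (from 68.2 to 23.1 and 26.7 RPKM) and the gasdermin gene Gsdme (-1.08). In the BCL-2 family and its neighbours 7 of 15 rose and 3 fell (median 0.15; 9 and 1 after median ratio scaling). The caspase-8 inhibitor gene Cflar rose from 3.95 to 49.8 and 63.4 RPKM, the survival gene Bcl2a1b from 85.8 to 548 and 510.0 RPKM, with reads that close copies may share, and Birc3 from 12.6 to 55 and 48.5 RPKM. The death gene Bax fell from 270.4 to 144 and 146 RPKM, whereas the falls of Bbc3 and Bcl2l1 were not called after median ratio scaling (adjusted p = 0.32 and 0.37), nor that of Bbc3 without library 17 and that of Bcl2l1 without library 18.

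On the axis of APRIL and BAFF (their receptors, binding proteins and signalling adaptors), 7 of 15 genes rose and 2 fell (median 0.66; 9 and 2 after median ratio scaling). The adaptor gene Traf1 rose from 6.62 to 102 and 93.8 RPKM, and Sdc4, a syndecan proteoglycan of the family that binds APRIL, from 8.65 to 109 and 109 RPKM. The related syndecan gene Sdc1 fell from 39.8 to 7.71 and 9.39 RPKM. Tnfsf13, which encodes APRIL, was at 52.8 RPKM unstimulated and 20 and 22.8 with LPS and fell by 1.27 on the log2 scale (limma adjusted p = 0.0011). With the length trend removed the list's median was 0.23, with the same counts.

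Runs of neighbouring tested genes on the chromosomes were picked because all their members were called higher. That the members rose together is therefore no separate result. The lengths of the runs were not tested against the 16% of all tested genes called higher. On chromosome 1, 14 neighbouring tested genes from Aim2 to Ifi205 (173350879 to 174031810, mm10), the family of cytosolic DNA sensors and their relatives, were all called higher, with a median of 3.49. Ifi205 reached 2739 and 2433 RPKM from 104, among the 10 highest levels with LPS. Other runs were 9 genes of the Irgm1 to Ifi47 block (chromosome 11, 48861968 to 49135387; median 2.78), 9 genes of the Schlafen family (chromosome 11, 82942341 to 83215154; median 2.35), 8 genes from Rcbtb1 to Cab39l with the Phf11 family (chromosome 14, 59201209 to 59585764; median 3.6) and 5 genes of a Gbp block (chromosome 5, 105014150 to 105346472; median 4.31). In the class II region of chromosome 17, Psmb9, Tap1, Psmb8, Gm20496 and Tap2 rose together (34181987 to 34216321; median 2.17). Genes of such families resemble each other, and reads may be shared among them.

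**Figure D4:**
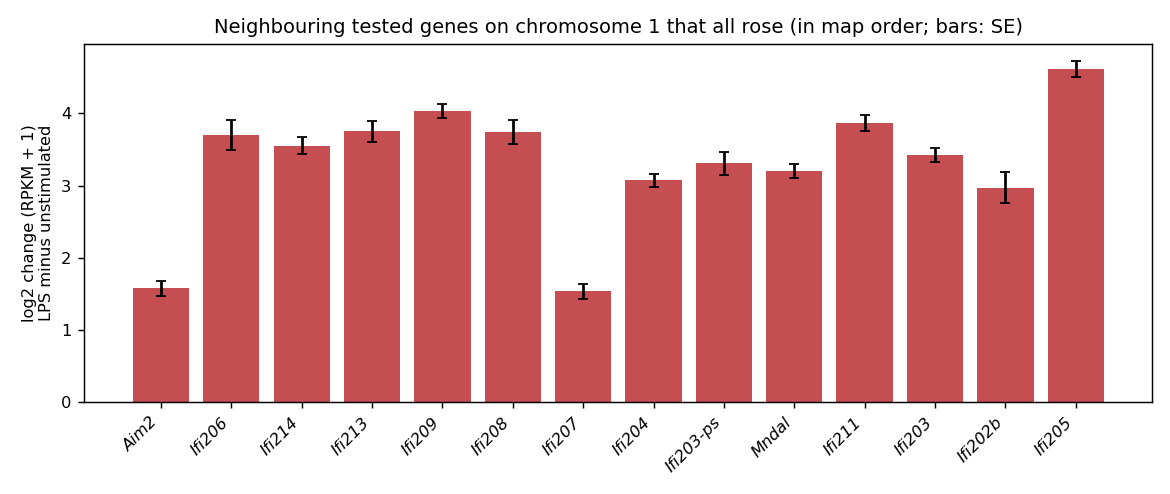
Log2(RPKM + 1) change with LPS in BAFF KO (bars, with SE as error bars) of 14 neighbouring tested genes on chromosome 1, in map order from Aim2 to Ifi205. The run was picked because all 14 are called higher, and the changes go from 1.53 in Ifi207 to 4.61 in Ifi205.

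The largest falls, of which 14 are described, were in receptors, transporters, regulators of lipids and cell division genes. Cd300lb (ENSMUSG00000063193, chromosome 11, 114922781 to 114934386), an activating receptor gene of myeloid cells, was at 21.3 RPKM unstimulated and 0.49 and 0.476 with LPS (log2 change -3.91, SE 0.22; limma adjusted p = 6.5e-06). Nfam1, an activating receptor gene with an ITAM motif, fell from 29.2 to 2.27 and 2.85 RPKM. Slc40a1, the iron exporter ferroportin, fell from 45.6 to 5.3 and 5.01 RPKM. Pparg, a nuclear receptor gene of lipid metabolism, fell from 29.8 to 3.32 and 2.9 RPKM, and Sesn1, a p53 target that restrains mTORC1, from 16.8 to 1.04 and 1.25 RPKM.

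The others were Tmem86a, Mmp9, Fos, Eepd1, Pram1, Cdk20, Retnlg, Gmnn and Cerk, at log2 changes of -3.13 to -2.62. Gmnn encodes geminin, which blocks repeat licensing of DNA replication, and went from 24.4 to 3.25 and 2.76 RPKM. Cerk encodes ceramide kinase and went from 30 to 4.28 and 3.78 RPKM. In Tmem86a the LPS libraries differed most, at 0.497 and 1.84 RPKM against 17.1. All 14 stayed called after median ratio scaling.

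Genes of DNA replication and mitosis fell in 29 of 39 and rose in 5 (median -1.04; 19 falls and 6 rises after median ratio scaling). The mitotic kinesin genes Kif23 and Kif20a fell from 13.9 to 1.29 and 2.09 RPKM and from 9.22 to 1.64 and 1.7 RPKM, and Cdc20, an activator of the anaphase-promoting complex, from 11.6 to 1.94 and 2.04 RPKM. The replication helicase genes Mcm3 and Mcm7 changed by -1.73 and -1.55. The rises included Cdkn1a, the cell cycle inhibitor p21 (from 24.5 to 163 and 156 RPKM), and the G1 cyclin genes Ccnd2 (from 0.206 to 4.91 and 4.83 RPKM) and Ccne1 (from 2.43 to 13 and 13.3 RPKM). The other rises were Wee1 (0.66) and Mki67 (0.54), a long gene that was not called with the length trend removed (adjusted p = 0.32).

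Cytosolic ribosomal protein genes fell in 43 of 47, with 0 rises (median -0.76; 14 falls and 0 rises after median ratio scaling). The largest fall was in Rps16, from 1118 to 543 and 492 RPKM, followed by Rpl10a (-1.03) and Rpl18 (-1.02), all of which have pseudogenes that may take reads. Their median was higher, and nearer 0, in the other genotypes. In WT the median of the list was -0.26 and in APRIL KO -0.2. Of the 47, 9 were called lower in BAFF KO than the mean of those genotypes, where 1.16% of all tested genes were. With the length trend removed 1 of the 47 was called, and the list's median in BAFF KO was -0.67. The medians of WT and APRIL KO still hold the trend, so they are not like for like with that value. Respiratory chain genes fell in 27 of 35 and rose in 1 (median -0.56), but after median ratio scaling 2 fell and 2 rose. Sdhb fell from 124 to 60.8 and 60 RPKM, and Cycs, cytochrome c, rose from 15.6 to 32.4 and 27.2 RPKM.

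Lysosomal genes fell in 25 of 32 and rose in 1 (median -0.68; 6 falls and 4 rises after median ratio scaling). Tfeb, the master regulator of lysosome genes, fell from 10.4 to 1.57 and 1.56 RPKM, its relative Tfe3 from 14.7 to 6.66 and 5.52 RPKM and the sialidase gene Neu1 from 20.7 to 9.27 and 8.17 RPKM. The rise was in Mitf, the third member of that factor family (from 3.89 to 8.9 and 11.5 RPKM). Neu1 was not called after median ratio scaling (adjusted p = 0.085).

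Genes of the unfolded protein and integrated stress responses fell in 16 of 25 and rose in 3 (median -0.73; 9 falls and 4 rises after median ratio scaling). The largest falls were in Ddit3, the gene of the stress factor CHOP, from 27.6 to 3.69 and 4.25 RPKM, the pseudokinase gene Trib3, from 7.64 to 1.08 and 1.43 RPKM, and Shmt2, an enzyme of mitochondrial serine metabolism, from 32.8 to 11.9 and 11.2 RPKM. Hspa5, the chaperone BiP of the endoplasmic reticulum, rose from 124 to 240.4 and 229 RPKM, Slc7a11, the cystine transporter, from 1.75 to 8.57 and 10.1 RPKM, and Ppp1r15a (GADD34), which reverses the translation block, from 12.3 to 30.1 and 27.4 RPKM.

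Metabolic lists were mixed. Glycolysis and HIF-1 genes had 7 rises and 10 falls of 23 (median -0.33; 7 and 4 after median ratio scaling). The largest rises were in the sugar transporter gene Slc2a6 from 13.3 to 161 and 160.2 RPKM, Pfkfb3 from 10.4 to 53.5 and 62.9 RPKM and hexokinase 2, Hk2, from 15.7 to 47 and 56.4 RPKM. Another sugar transporter gene, Slc2a1, fell from 22.7 to 13 and 15.6 RPKM (-0.64, limma adjusted p = 0.0069). After median ratio scaling it was at -0.2 and not called (limma adjusted p = 0.3). Falls were in Pfkfb4 (-1.61), Gpi1 (-0.94) and Pgam1 (-0.91). Cholesterol synthesis genes had 4 rises and 8 falls of 22 (median -0.29; 6 and 3 after median ratio scaling). Insig1, which holds back cholesterol synthesis, and the isomerase gene Idi1 rose by 0.92 and 0.69 on the log2 scale. Sqle (-1.01) and Msmo1 (-0.99) fell, as did Fdft1 (-0.96), which was not called after median ratio scaling (adjusted p = 0.09).

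Liver X receptor and cholesterol efflux genes fell in 9 of 15 and rose in 1 (median -0.56; 4 and 2 after median ratio scaling). The receptor gene Nr1h3 fell from 35.4 to 14.6 and 15 RPKM, its partner Rxra from 4.49 to 0.527 and 0.785 RPKM and the lipoprotein gene Apoc2 from 33.2 to 12.8 and 12.3 RPKM. The rise was in Mylip, a liver X receptor target that encodes a ubiquitin ligase (from 21.8 to 28.5 and 29.4 RPKM, adjusted p = 0.025), and it was not called without library 17 or without library 18.

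Metal handling genes had 6 rises and 9 falls of 21 (median -0.04; 9 and 5 after median ratio scaling). The ferritin genes had the highest RPKM of all, Fth1 at 11987 RPKM unstimulated and 7384 and 7172 with LPS and Ftl1 at 10880.4 RPKM unstimulated and 4403 and 4694 with LPS. Their log2 changes were -0.72 and -1.26, and after median ratio scaling -0.26 (adjusted p = 0.3) and -0.8 (adjusted p = 0.01). Hmox1, which frees iron from heme, fell from 699 to 235 and 234 RPKM and the iron reductase gene Steap3 from 2.79 to 0.504 and 0.418 RPKM, while the ferroxidase gene Cp, ceruloplasmin, rose from 1.34 to 20.6 and 21.1 RPKM. The zinc exporter genes Slc30a4 and Slc30a1 rose by 1.0 and 0.6 on the log2 scale, and the call of Slc30a1 ended without library 18.

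Oxidase, antioxidant and antimicrobial genes had 9 rises and 17 falls of 32 (median -0.46; 11 and 7 after median ratio scaling). The rises were led by the acute-phase gene Saa3 (from 5.97 to 259.8 and 278 RPKM) and the complement genes Cfb (from 2.37 to 119 and 124 RPKM) and C3 (from 113 to 810.2 and 758 RPKM). Among the falls were genes of glutathione use and synthesis, Gpx1 (from 110.0 to 36.8 and 37.1 RPKM), Gpx4 (from 385 to 162 and 149.9 RPKM) and Gclc (from 34.6 to 10.4 and 12.1 RPKM). The oxidase subunit genes Cybb and Ncf1 rose by 1.81 and 1.03 on the log2 scale.

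Surface receptor genes of macrophages changed in both directions. Apoptotic cell uptake and scavenger receptor genes had 5 rises and 7 falls of 22 (median -0.17; 8 and 3 after median ratio scaling). Axl, a receptor for dying cells, rose from 62.1 to 157 and 165 RPKM, its relative Mertk from 22.7 to 47.5 and 54.5 RPKM, the integrin gene Itgav from 20.1 to 66 and 77 RPKM and the scavenger receptor gene Olr1 from 0.692 to 4.93 and 4.33 RPKM. Falls were in Lrp1 (from 87 to 24.2 and 28.5 RPKM), Stab1 (from 97.1 to 38.8 and 39.6 RPKM) and the HDL receptor gene Scarb1 (from 15.1 to 4.83 and 4.99 RPKM). Lrp1 and Stab1 are long genes, and both stayed called with the length trend removed.

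Fc, CD300, TREM and lectin receptor genes had 8 rises and 15 falls of 31 (median -0.39; 11 and 8 after median ratio scaling). Clec4e, the receptor Mincle for mycobacterial glycolipid, rose from 38.4 to 413 and 402 RPKM, and the activating Fc receptor genes Fcgr1 from 22.5 to 77.4 and 72 RPKM and Fcgr4 from 12.3 to 35.4 and 32.1 RPKM. The inhibitory receptor gene Cd300a fell from 66.7 to 14.1 and 16.4 RPKM, as did Cd300lb and Nfam1 above. Lineage transcription factor and cytokine receptor genes had 9 rises and 12 falls of 30 (median -0.36; 12 and 9 after median ratio scaling). Batf2 rose from 0.892 to 16.7 and 18.6 RPKM, Batf from 2.21 to 20.5 and 22.1 RPKM and the TNF receptor gene Tnfrsf1b from 100.3 to 318 and 366 RPKM. Il6ra fell from 11.4 to 1.97 and 2.48 RPKM and Ccr2, the receptor that brings monocytes out of the marrow, from 3.94 to 0.288 and 0.453 RPKM. The factor Spi1 (PU.1), which defines the lineage, was at -0.04 (adjusted p = 0.76).

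Besides ferritin, the chemokine gene Cxcl10 and genes named above, the 10 highest levels with LPS included those of lysozyme Lyz2 (5272 RPKM unstimulated and 3403 and 3649 with LPS), prosaposin Psap (5690.3 RPKM unstimulated and 3319.9 and 3450.2 with LPS) and cathepsin D, Ctsd (5086 RPKM unstimulated and 2931 and 3004 with LPS). The falls of all 3 were called as deposited and not after median ratio scaling (adjusted p = 0.59, 0.16 and 0.18). Anxa5 (1914 RPKM unstimulated and 2309 and 2098 with LPS) and the predicted gene Gm10800, which differed between libraries 17 and 18 (1734 and 2928), were not called.

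Markers of other blood cells were present in library 16. Counts of marker genes also stand beside the 16% of all tested genes called higher and the 43.8% called lower. After median ratio scaling those shares were 23.1% and 17.8%. A share near them is no result about the cell type. In bulk RNA, fewer cells of a type and less RNA per cell cannot be told apart. Neutrophil markers fell in 11 of 12, with 0 rises (median -1.23; 9 falls after median ratio scaling), and their summed level was 5880 RPKM in library 16 and 2720 and 2340 in libraries 17 and 18. S100a9, a calcium-binding protein gene of neutrophils and monocytes, was at 3009 RPKM unstimulated and 1349 and 1189 with LPS, and the granule protein genes Ltf and Retnlg changed by -1.68 and -2.68. Mmp8, Mmp9, Camp and Ngp, which other lists hold, are neutrophil genes too, and Camp was not called after median ratio scaling (adjusted p = 0.062). The part of neutrophil RNA in those falls was not tested. Ly6g was not analysed here.

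Macrophage markers had 2 rises and 4 falls of 8 as deposited but 4 rises and 1 fall after median ratio scaling, with sums of 7600 RPKM in library 16 and 5180 and 5210 with LPS. Of these, Csf1r, the receptor for the growth factor on which macrophages depend, was at 505 RPKM unstimulated and 257 and 238 with LPS. Monocyte markers had 1 rise and 3 falls of 7 (2 and 1 after median ratio scaling, 2 and 3 with the length trend removed), with sums of 1070, 704 and 817 in libraries 16, 17 and 18. Megakaryocyte markers had 2 falls of 3 and sums of 589, 458 and 378 in the same order, and 0 falls after median ratio scaling. B cell markers had 1 fall of 5 (sums 71.0, 62.5 and 68.1) and after that scaling 1 rise and 0 falls. Mast cell markers had 2 falls of 6 (62.4, 49.2 and 53.6) and then 0, and dendritic cell markers 3 falls of 4 (33.0, 20.9 and 22.8) and then 1 rise and 1 fall. Erythroid markers had 1 rise of 5, Car2, under both scalings (sums 693, 532 and 662). Osteoclast markers had 1 rise, Acp5, and 1 fall of 4, and after median ratio scaling 1 rise and 0 falls.

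Markers of tissue cells differed between libraries. Stromal markers had 0 calls of 7 under both scalings, with sums of 12.7, 12 and 51, and library 18 alone was high: the collagen gene Col3a1 was at 3.2 RPKM unstimulated and 2.73 and 19.4 with LPS. The stromal receptor gene Pdgfra had 0 reads unstimulated. Skeletal muscle markers had 2 rises of 9, Myh1 (1.01) and Tnnt3 (1.44), and 5 after median ratio scaling, with sums of 16.8, 33.7 and 42.1, and Myh1 was not called with the length trend removed (adjusted p = 0.053), while Ckm, muscle creatine kinase, had 0 reads with and without LPS. Of the 8 T and NK cell markers 0 were tested: Cd8a had 0 reads unstimulated, and the others were not analysed here.

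The next comparison asked where the response of BAFF KO macrophages differed from that of the other genotypes. The change with LPS in BAFF KO, minus the mean of the changes in WT and APRIL KO, was called for 246 genes (2.48%), 131 higher (1.32%) and 115 lower (1.16%). With the length trend removed 109 genes were called, of which 101 were among the 246. Against WT alone 44 genes were called (0.443%), 22 higher and 22 lower (0.221% each), and against APRIL KO alone 19 (0.191%), 7 higher (0.0705%) and 12 lower (0.121%). All 3 tests share the BAFF KO libraries, and each rests on library 16 and on 1 unstimulated library of the genotype compared. Of the 131, 93 were genes that rose in BAFF KO itself and 18 genes that fell. Of the 115, 31 rose in BAFF KO and 64 fell. Over all tested genes 16% rose and 43.8% fell. The difference contains the BAFF KO change itself, so a match between the 2 directions is partly built in.

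Interleukin-1 and metallothionein genes responded less in BAFF KO. Mt2 (ENSMUSG00000031762, chromosome 8, 94172664 to 94173568, mm10), a metallothionein gene for a zinc and copper binding protein, was at 41 RPKM unstimulated and 40.4 and 45.3 with LPS in BAFF KO, against 45.7 unstimulated and 495 and 433 with LPS in WT and 30.2 and then 309 and 422 in APRIL KO. Mt2 was named for the size of its difference, and unstimulated levels were close in the 3 genotypes, so the difference stood in the LPS libraries. Its change in BAFF KO was 0.06 as deposited (limma adjusted p = 0.79). After median ratio scaling it was 0.51 and called higher (limma adjusted p = 0.048). The difference from the mean of the other responses was -3.37 (SE 0.22; limma adjusted p = 0.0014), -3.25 from WT and -3.48 from APRIL KO. Its neighbour and relative Mt1, with which it may share reads, was at 71.3 RPKM unstimulated and 34.8 and 33 with LPS in BAFF KO, while WT had 90 and 109 with LPS from 55.1 and APRIL KO 89 and 95.6 from 49. Mt1 differed from APRIL KO by -1.95 (adjusted p = 0.01).

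Il1b was higher with LPS in every genotype, and its change was smaller in BAFF KO: 7.79 went to 373 and 369 RPKM, against 13.4 to 2298 and 2492 in WT and 8.84 to 2269 and 2549 in APRIL KO. The log2 difference was -2.25 (SE 0.13; limma adjusted p = 0.00085). Il1a went from 2.07 to 176 and 203, against 678 and 624 in WT and 966 and 798 in APRIL KO with LPS, a difference of -2.02 (adjusted p = 0.0045). Both encode interleukin-1 ligands that act on the same receptor. Both genes were named for the size of this difference. That the LPS libraries of BAFF KO did not overlap those of the other genotypes goes with that choice.

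Further genes rose less with LPS in BAFF KO than in WT and APRIL KO, or were not called higher in BAFF KO. U90926 had 0 reads in library 16 and 51 with LPS, which is at least 8.69-fold higher. It was at 9.45 and 9.83 RPKM with LPS in BAFF KO, 97.1 and 113 in WT and 104.7 and 91.8 in APRIL KO (difference -3.27, adjusted p = 0.00085). Il19, a cytokine gene of the interleukin-10 family, had 0 reads unstimulated and 4 with LPS in BAFF KO. With LPS it was at 6.76 and 9.4 RPKM in WT and 6.58 and 6.82 in APRIL KO (-2.27). Its difference from APRIL KO alone was not called. The semaphorin gene Sema4c was at 2.26 RPKM unstimulated and 2.01 and 2.68 with LPS, with 13.4 and 12.1 in WT and 14.3 and 17.4 in APRIL KO (-2.34), and Errfi1, a feedback inhibitor of the EGF receptor, at 0.842 RPKM unstimulated and 1.25 and 2.18 with LPS, with 20.7 and 15.1 in WT and 17.7 and 14.5 in APRIL KO (-1.93). For these genes the unstimulated levels of all 3 genotypes were within a few RPKM of each other.

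Id1, an inhibitor of basic helix-loop-helix factors, fell in BAFF KO, from 6.67 to 1.24 and 1.09 RPKM. It went from 4.26 to 6.8 and 7.44 in WT and from 3.2 to 3.22 and 4.38 in APRIL KO (-2.23, limma adjusted p = 0.016). The difference of Id1 from APRIL KO alone was not called. Alas1, the first enzyme of heme synthesis, fell from 53.5 to 32.4 and 33.5 RPKM in BAFF KO and went from 32.7 to 77.8 and 92.1 in WT (-2.03 from WT, adjusted p = 0.0078). In APRIL KO it went from 45.1 to 86.3 and 94.4. Its fall in BAFF KO was not called after median ratio scaling (adjusted p = 0.18). The changes of Ccl7, a monocyte chemoattractant gene, and Mmp13 differed from those in APRIL KO by -2.38 and -1.97, and from the mean of the other genotypes by -1.63 (adjusted p = 0.017) and -1.87 (adjusted p = 0.00085). Ccl7 was at 73.6 and 70.7 RPKM with LPS in BAFF KO and 209 and 273 in APRIL KO, and Mmp13 at 124 and 128 in BAFF KO and 475 and 490.1 in APRIL KO.

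Other genes responded more in BAFF KO. Il12b reached 154 and 144 RPKM, against 51.9 and 51.6 in WT and 72 and 61.4 in APRIL KO, from unstimulated levels of 0.742, 1.26 and 1.35 in that order (1.73, SE 0.16; limma adjusted p = 0.0064). Cxcl9 reached 131 and 133, against 36.7 and 39.3 in WT and 33.1 and 35.3 in APRIL KO (1.67, adjusted p = 0.0064). Irf1, a transcription factor of interferon responses, reached 410.4 and 437 against 198 and 208 in APRIL KO (1.01, adjusted p = 0.044). These 3 genes were named for their differences, so LPS libraries of BAFF KO above those of the genotypes compared go with that choice. The transcriptional coregulator gene Cited2 went from 6.74 to 35.4 and 43.8 RPKM in BAFF KO against 10.2 to 19.3 and 18.8 in WT (1.55, adjusted p = 0.036). Swap70, a regulator of actin in immune cells, went from 30.4 to 110.2 and 97.8 RPKM in BAFF KO and from 44.7 to 62.3 and 57.2 in APRIL KO (1.33, adjusted p = 0.032). The semaphorin gene Sema4d went from 51.1 to 86.7 and 93.8 RPKM and, in APRIL KO, from 88.9 to 67.5 and 58.8 (1.3, adjusted p = 0.04), but that difference was not called with the length trend removed (adjusted p = 0.056). After median ratio scaling the differences from APRIL KO of Il12b, Swap70, Sema4d and Irf1 were not called either, at adjusted p = 0.055, 0.055, 0.056 and 0.056 (limma).

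Mylip, Arhgap22 and Wee1 were lower with LPS in the other genotypes and not in BAFF KO. Mylip was at 21.8 RPKM unstimulated and 28.5 and 29.4 with LPS in BAFF KO, but went from 23.3 to 8.03 and 8.29 in WT and from 32.3 to 10.6 and 9.83 in APRIL KO (1.89, adjusted p = 0.0036). Arhgap22, a regulator of Rac, (1.97) and Wee1, which holds back mitosis (1.86), differed from the mean in the same direction. Neither was among the 7 genes called higher against APRIL KO alone. The log2 change of Wee1 was -1.63 in WT and -0.77 in APRIL KO. With LPS, Arhgap22 was at 23.9 and 24.2 RPKM in BAFF KO and 8.98 and 6.13 in WT, and Wee1 at 10.3 and 12.5 in BAFF KO and 2.88 and 2.66 in WT. Dapk1, a death-associated kinase gene, was lower with LPS in all 3 genotypes, less so in BAFF KO: from 22.6 to 9.97 and 11.9 RPKM, against 25.6 to 4.49 and 3.69 in WT and 35 to 4.97 and 4.7 in APRIL KO (1.52, adjusted p = 0.027).

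In Atp6v0c the difference stood in the unstimulated libraries. This gene, for a subunit of the lysosomal proton pump, was at 39.9 RPKM unstimulated and 83.9 and 83.2 with LPS in BAFF KO, and went from 141 to 88.1 and 96.1 in WT and from 114 to 73.9 and 78.9 in APRIL KO (1.64, adjusted p = 0.0032). The LPS levels of the 3 genotypes lay close together, and library 16 was the low point.

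**Figure D5:**
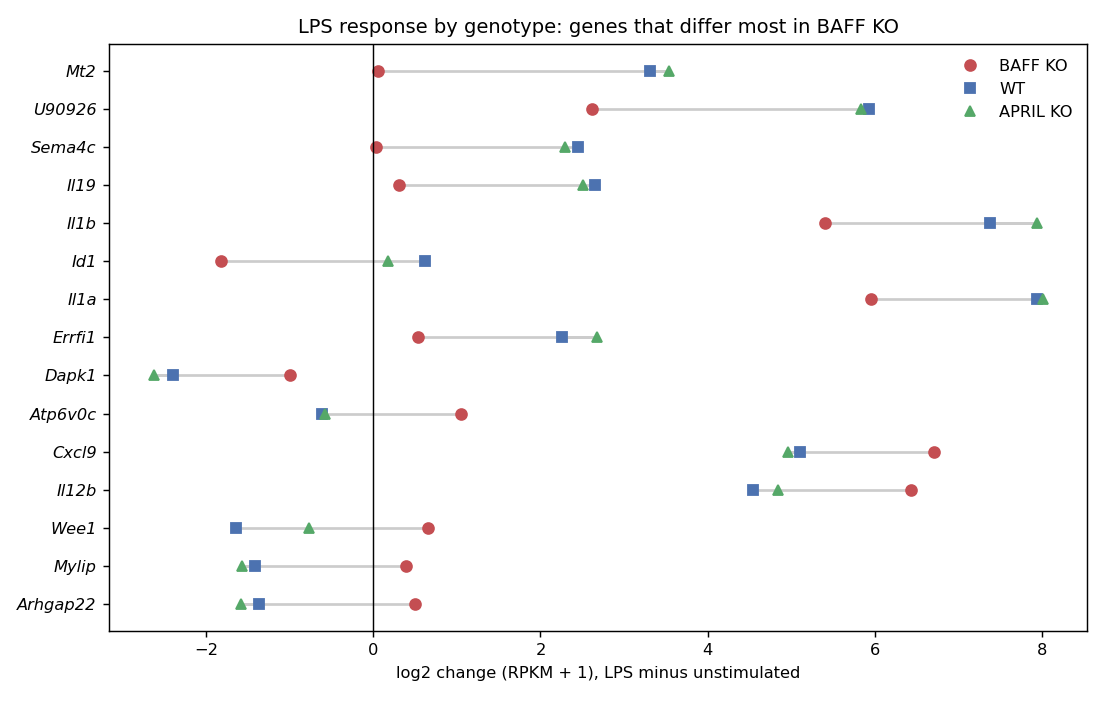
Log2(RPKM + 1) change with LPS in BAFF KO (red circles), WT (blue squares) and APRIL KO (green triangles) for 15 of the genes with the largest differences between BAFF KO and the mean of the other genotypes, 8 lower and 7 higher. Mt2 is at 0.06 in BAFF KO and at 3.31 and 3.54 in the others, and Il12b at 6.43 against 4.54 and 4.84.

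All 15 genes named for their difference from the mean of the other genotypes stayed called with the length trend removed and after median ratio scaling. Leaving out any 1 of the 6 LPS libraries of the series, 6 of the 15 stayed called in every such fit: Mt2, U90926, Il1b, Il1a, Mylip and Atp6v0c. Against WT 0 of the 14 named stayed called in every such fit, and against APRIL KO 3 of 15 did, U90926, Il1b and Mmp13. The 246 calls became 13 without library 17 and 14 without library 18, 52 and 18 without the WT libraries 14 and 15, and 31 and 27 without the APRIL KO libraries 20 and 21. Against WT the 44 calls became 0 without library 17, where 2084 genes had an unadjusted p under 0.05 (limma), and at most 19 without another library. Against APRIL KO the 19 calls became 3 to 11. No fit without library 16 can be made, since BAFF KO has no other unstimulated library.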

How the data were processed

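RNA from bone marrow-derived macrophages was sequenced as single reads, and 1 table of RPKM values was deposited for 18 columns, none of which was left unused. The submitters' processing notes name STAR and the build mm10. Not given in the sources used here are the read counter, the annotation and the strand setting, so overlapping and antisense genes cannot be told apart with certainty, and near-identical genes may share reads. The deposited RPKM values came out as whole reads for 100% of values (within 0.01 reads), after 1 read had been added to each count. A count of 0 was written as 1 read at a depth of 2636926, which touched 1997 genes in at least 1 column. Symbols were matched for 11084 of 11164 genes.

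Columns of 1 library number were averaged. Genes were tested where 1 or more of the 6 groups had a mean of 1 RPKM or above, on log2(RPKM + 1), a scale that understates the change of low genes, with limma 3.58.1 (R 4.3.3): a fit on 6 group means with 3 residual degrees of freedom, a trended prior, 2-sided tests and Benjamini-Hochberg adjustment over all 9934 genes, called below 0.05. The calculations were tested on simulated data. Alternatives covered the pseudocount, filter, scaling, columns, call rule and left-out libraries. Removal of the length trend, a lowess curve of each library's deviation over log2 gene length, was added after the trend had been seen.

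Genes were named by rule: the 15 largest rises and falls with LPS whose columns do not overlap, the 8 largest differences in each direction per comparison of genotypes, up to 3 rises and 3 falls per list, the 10 highest levels, and Tnf, Il6, Il1b, Il10, Nos2, Ptgs2, Cxcl10, Tlr4, Cd14 and Tnfsf13. Some genes that meet the rule are not reported here. The members, the 30 pathway lists and the 12 cell type lists were chosen with earlier results of these data known, and no list was tested as a set. Replicate numbers in the titles were checked and did not pair the columns: correlations of deviations ran from -0.0389 to 0.0389. Ratios for genes with few reads use summed reads scaled to the totals, with limits for counting error only. The floor for 0 reads was 3 reads over the group. Promoters came from RefSeq (GRCm38.p6).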

Additional observations from a re-analysis of the deposited data

Results flagged for a closer look

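The change with LPS in BAFF KO differed from that in other genotypes, by a limma test of the difference itself, for 15 named genes against the mean of WT and APRIL KO, 14 against WT and 15 against APRIL KO. All values are log2 differences with adjusted p below 0.05, and all rest on the single unstimulated library of each genotype. The 3 comparisons share the BAFF KO libraries.

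Interleukin-1 and metallothionein genes stood on the lower side. Mt2 differed by -3.37 from the mean (adjusted p = 0.0014), -3.25 from WT and -3.48 from APRIL KO, and Mt1 by -1.95 from APRIL KO. Il1b differed by -2.25 from the mean (adjusted p = 0.00085), -1.97 from WT and -2.53 from APRIL KO. Il1a differed by -2.02, -1.98 and -2.06 in the same order. U90926, at 0 reads in library 16, differed by -3.27, -3.31 and -3.22, and Sema4c by -2.34, -2.41 and -2.26.

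Other genes on the lower side were named in fewer comparisons. Il19 differed by -2.27 from the mean and -2.34 from WT, and Id1 by -2.23 and -2.45. Neither difference was called against APRIL KO alone. Errfi1 differed by -1.93 from the mean (adjusted p = 0.039) and Alas1, for heme synthesis, by -2.03 from WT. The chemokine gene Ccl7 and the collagenase gene Mmp13 differed from APRIL KO by -2.38 and -1.97, and from the mean by -1.63 and -1.87 (adjusted p = 0.017 and 0.00085).

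On the higher side, Mylip differed by 1.89 from the mean, 1.8 from WT and 1.97 from APRIL KO. Il12b differed by 1.73, 1.88 and 1.58, Cxcl9 by 1.67, 1.6 and 1.74, and Atp6v0c by 1.64, 1.66 and 1.62. Wee1 differed by 1.86 from the mean and 2.29 from WT. Arhgap22 and Dapk1 differed by 1.97 and 1.52 from the mean (adjusted p = 0.032 and 0.027). Cited2 differed from WT by 1.55, and Swap70, Sema4d and Irf1 from APRIL KO by 1.33, 1.3 and 1.01 (adjusted p = 0.032, 0.04 and 0.044).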

How the results depend on the processing

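All 1590 rises kept their call after median ratio scaling, which shifts changes upward and so could hardly end a rise. The count of falls, 4353, became 1768 after it and 2838 from the lower index columns alone, and a fold of at least 2 left 967 rises and 1517 falls. Leaving out single LPS libraries gave 1409 to 1572 rises and 3592 to 4282 falls. The differences between genotypes depended more on the settings. The 246 calls against the mean became 34 with no filter, 396 with a filter of 5 RPKM, 11 and 107 from the lower and higher index columns alone, 121 with a fold of at least 2, 109 with the length trend removed, and 13 to 52 with a library left out. The 44 against WT became 15 with no filter, 99 with the 5 RPKM filter, 70 after quantile normalization, 2 from the lower index columns and 0 to 19 with a library left out. The 19 against APRIL KO became 12, 49, 74 and 0 under those settings and 3 to 11 with a library left out. Beside that 0, 1341 genes had an unadjusted p under 0.05 in limma. With the 18 columns taken as samples, which counts each library more than once, 2552, 2193 and 1810 genes were called, and with the replicate number as a block (replicate block) 2453, 2081 and 1738. The replicate block gave 1808 rises and 4974 falls with LPS. Of 176 named LPS calls, 154 kept their call after median ratio scaling, 20 lost it and 2 turned, Calr to 0.06 and Odc1 to 0.12, and after quantile normalization Ftl1 went to 0.0 and Lyz2 to 0.06. The cause of these shifts was not tested. Depth of 1701428 to 4078562 reads limits genes near 1 RPKM.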
